A study of Mus musculus with 6 samples.

Results

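The chemokine receptor genes described here are Ccr1, Ccr2, Ccr3, Ccr9, Ccrl2, Cxcr6 and Xcr1, 7 of the 33300 features in the deposited expression table. They were taken by gene symbol as a set of chemokine receptor genes clustered on mouse chromosome 9, which also carries others, such as Ccr4 and Ccr8, outside the set. RNA was measured in CD4 T cells of 3 SLE1.2.3 mice and 3 Control mice, whose genotype is labelled WT. SLE1.2.3 mice are a lupus-prone strain into which several susceptibility intervals, none of them on chromosome 9, were bred together. All mice were female and matched for age, and the sources used here do not give their ages. Naive cells of both groups were kept for 5 days on plates coated with antibodies to CD3 and CD28, in medium with IL-6 at 50 ng/mL, IL-1β and IL-23 at 10 ng/mL each, TGF-β1 at 1 ng/mL and blocking antibodies against IFNγ and IL-4 at 10 µg/mL each. This mixture drives cells towards the Th17 type.

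Chemokine receptors are membrane proteins that sense small secreted proteins, the chemokines, and steer migrating leukocytes along their gradients. Most signal through inhibitory G proteins, while an atypical member such as Ccrl2 binds a ligand without driving migration itself. On T cells several of these receptors appear with activation and effector differentiation, and they direct the cells into inflamed tissue rather than lymph nodes.

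The libraries held between 61700000 and 83500000 assigned reads in the SLE1.2.3 group and between 29700000 and 56800000 in the Control group. The Th17 genes Il17a and Rora were present in all 6 libraries, with Rora at 20.5, 21.6 and 24.2 FPKM in SLE1.2.3 mice 1, 2 and 3 against 7.69, 8.96 and 10.1 FPKM in Control mice 1, 2 and 3. Of 6 Th17 genes checked, 5 rose and Il17f did not pass (limma adjusted p = 0.43). FPKM divides the reads of a gene by its length and by the depth of the library, so levels of different genes can be set side by side. SLE1.2.3 mice 2 and 3 stood apart from mouse 1 in markers that go against a pure CD4 T cell label. Cd8a, a chain of the CD8 coreceptor, stood at 1.34, 21.4 and 56.4 FPKM in SLE1.2.3 mice 1, 2 and 3 and at most 0.508 FPKM in Control mice. Cd4 stood at 257, 144 and 71.6 FPKM in SLE1.2.3 mice 1, 2 and 3 and between 246 and 264 FPKM in Control mice. Values with and without mice 2 and 3 are therefore given below. Mouse 1 too stood above every Control library in some markers of other cells, though not in all, the NK cell marker Ncr1 being an exception. In mouse 1 the γδ T cell marker Trgc1 stood at 13.5 FPKM and the B and plasma cell marker Igkc at 56.4 FPKM. In Control mice they were at most 0.817 and 1.64 FPKM.

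SLE1.2.3 cells held far more RNA of Cxcr6, Ccr1 and Ccr2 than Control cells, and Xcr1 was also higher. Ccr3 and Ccrl2 had overlapping levels in both groups, and Ccr9 was barely detected. Testing required that the 6 libraries average 1 FPKM or more, which 6 of the 7 receptor genes met. Of these 6, 4 rose and 0 fell at an adjusted p of 0.05 (limma on log2(FPKM + 1), Benjamini-Hochberg over 11378 genes). Over all tested genes 9.65% were called higher and 5.58% lower, that is 1098 and 635 genes. The groups did not overlap for 4 of the 6 receptor genes, beside 41.5% of all tested genes, 23.9% with SLE1.2.3 above. The split of all calls was 1016 higher and 370 lower after rescaling to a common FPKM sum, which moved the median log2 change of all genes to 0.12 from 0.01, and 921 higher and 881 lower after quantile normalization. Under both scalings Cxcr6, Ccr1 and Ccr2 were still called higher. Xcr1 met the filter by its SLE1.2.3 levels alone, which fixed the sign of its change, so the count is 3 of 5 without it. In bulk RNA, more cells of a type and more RNA per cell cannot be told apart.

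**Figure D1:**
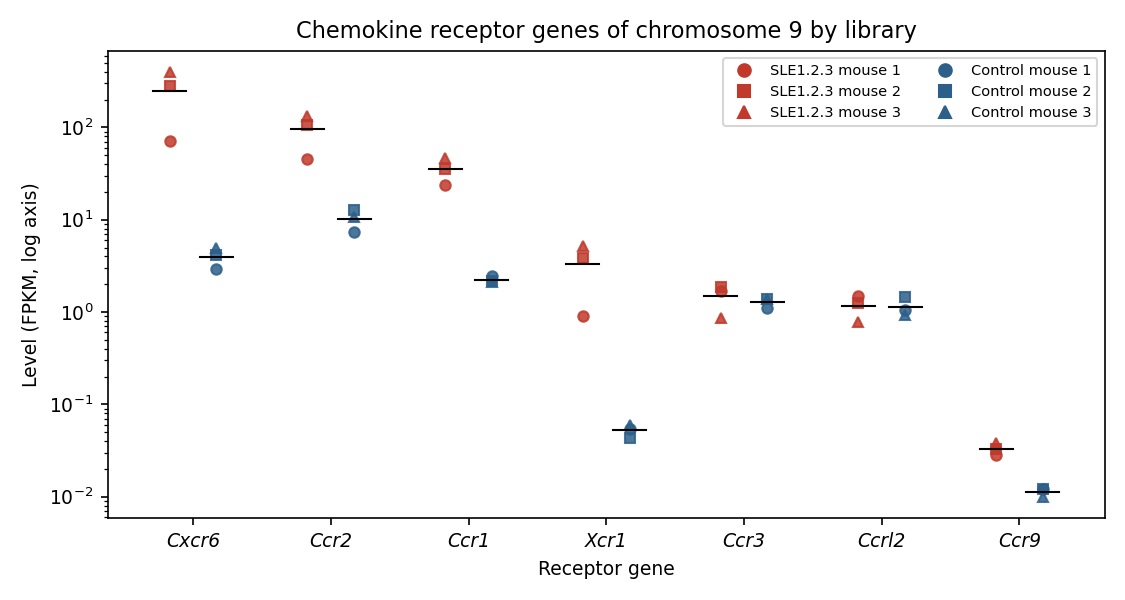
Level of each receptor gene in FPKM (log axis) in the 3 SLE1.2.3 libraries (red, left) and the 3 Control libraries (blue, right), with marker shapes for mouse number and a black line at the group mean. Cxcr6, Ccr2, Ccr1, Xcr1 and Ccr9 do not overlap between the groups, while Ccr3 and Ccrl2 do.

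Cxcr6, the receptor for the membrane-bound chemokine Cxcl16 that marks tissue-homing effector and resident T cells, had the largest log2 change of the tested receptor genes on the FPKM + 1 scale. It stood at 71.9, 280.3 and 399 FPKM in SLE1.2.3 mice 1, 2 and 3, against 2.91, 4.14 and 4.93 FPKM in Control mice 1, 2 and 3. The lowest SLE1.2.3 library thus lay 14.6 times above the highest Control library. The log2 change was 5.36 ± 0.61 (SE; limma adjusted p = 0.0074), the 5th highest of all tested genes. Behind it stood between 11593 and 57870 reads in SLE1.2.3 libraries and between 283 and 454 reads in Control libraries. Cxcr6 (ENSMUSG00000048521.8) lies on the plus strand at chr9:123806475-123811760 (mm10), wholly inside the span of the minus-strand gene Fyco1, with which it shares 0 exonic bases. The strand setting of the authors' counting is not given in the sources used here.

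Ccr1 is the receptor of inflammatory chemokines such as Ccl3 and Ccl5. It stood at 23.8, 35.1 and 46.7 FPKM in SLE1.2.3 mice 1, 2 and 3, against 2.48, 2.18 and 2.09 FPKM in Control mice 1, 2 and 3. The Control libraries lay close together and every SLE1.2.3 library lay at least 9.63 times above the highest of them. The log2 change of 3.43 ± 0.23 (SE; limma adjusted p = 0.0016) had the smallest SE, relative to its size, of the receptor genes called. Ccr1l1, a close relative of Ccr1 beside it, was at most 0.103 FPKM in any library. Ccr1 (ENSMUSG00000025804.5; chr9:123962124-123968692, minus strand) and Cxcr6 were the receptor genes called in each of the 18 alternative fits, with largest adjusted p of 0.020 and 0.044.

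Ccr2, the receptor through which Ccl2 draws monocytes and effector T cells into inflamed tissue, had the highest level of these genes in Control cells. It stood at 45.3, 107 and 134 FPKM in SLE1.2.3 mice 1, 2 and 3, against 7.43, 12.7 and 10.7 FPKM in Control mice 1, 2 and 3. No library of one group reached into the range of the other, and the nearest pair differed 3.58 times. The log2 change was 2.99 ± 0.41 (SE; limma adjusted p = 0.011). The call was lost when SLE1.2.3 mouse 2 was left out (adjusted p = 0.058), and likewise without Control mouse 1, 2 or 3 (adjusted p = 0.054, 0.051 and 0.054), while the log2 change stayed between 2.68 and 3.45 with each library left out in turn. Ccr2 (ENSMUSG00000049103.14) spans chr9:124101950-124113557 on the plus strand.

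Xcr1, the receptor for the chemokine Xcl1, is best known as a marker of cross-presenting dendritic cells. It stood at 0.901, 3.89 and 5.25 FPKM in SLE1.2.3 mice 1, 2 and 3, against 0.0540, 0.0430 and 0.0600 FPKM in Control mice 1, 2 and 3. In reads these were 335, 1068 and 1757 in SLE1.2.3 libraries against 12, 11 and 8 in Control libraries, so the groups were far apart but the Control level rested on few reads. The log2 change on the FPKM + 1 scale, which compresses low genes, was 1.88 ± 0.42 (SE; limma adjusted p = 0.035). Limma voom on the reads recovered from the FPKM steps gave a log2 change of 5.56 (adjusted p = 0.079). The call was also lost without any one library other than SLE1.2.3 mouse 1, with adjusted p between 0.058 and 0.13, with no level filter (adjusted p = 0.094), after quantile normalization (adjusted p = 0.070) and with mouse number as a block (adjusted p = 0.054). Xcr1 (ENSMUSG00000060509.5) lies at chr9:123852315-123862029 on the minus strand. Clec9a, another marker gene of the dendritic cells that carry Xcr1, was at most 0.0040 FPKM across SLE1.2.3 libraries and 0.0210 FPKM in Control libraries. Batf3, a transcription factor of these dendritic cells that activated T cells also express, was between 24.8 and 40.04 FPKM across SLE1.2.3 libraries and between 17.9 and 24.7 FPKM in Control libraries (limma adjusted p = 0.071). Zbtb46, another dendritic cell gene, was between 0.171 and 0.231 FPKM across SLE1.2.3 libraries and between 0.0910 and 0.130 FPKM in Control libraries.

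Ccr3, the eotaxin receptor of eosinophils and some Th2 cells, lies between Ccr1 and Ccr2 at chr9:124021972-124031689 on the plus strand (ENSMUSG00000035448.9). It stood at 1.67, 1.89 and 0.871 FPKM in SLE1.2.3 mice 1, 2 and 3, against 1.10, 1.40 and 1.38 FPKM in Control mice 1, 2 and 3. SLE1.2.3 mice 1 and 2 lay above the Control range and mouse 3 below it. The log2 change was 0.09 (limma adjusted p = 0.75), with a 95% interval from -0.34 to 0.52. Array weights, which down-weight libraries far from their group, gave a log2 change of 0.33 for Ccr3 (adjusted p = 0.017). Of the eosinophil genes, Epx was listed at 0 in all 6 libraries. Prg2 stood at 0.186, 0.135 and 1.38 FPKM in SLE1.2.3 mice 1, 2 and 3 and at most 0.0210 FPKM in Control mice, and Siglecf was between 0.0520 and 0.151 FPKM across SLE1.2.3 libraries and at most 0.0320 FPKM in Control libraries, so both were low but higher in every SLE1.2.3 library.

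Ccrl2 encodes an atypical receptor that binds chemerin, the product of Rarres2, and presents it to neighbouring cells. It stood at 1.48, 1.26 and 0.779 FPKM in SLE1.2.3 mice 1, 2 and 3, against 1.06, 1.44 and 0.919 FPKM in Control mice 1, 2 and 3. The groups overlapped throughout, and the log2 change was 0.01 (limma adjusted p = 0.96; 95% interval from -0.38 to 0.40). Its sign turned under several alternatives. Ccrl2 (ENSMUSG00000043953.12) lies on the minus strand at chr9:111054486-111057519, 12.6 Mb from the nearest of the other 6 genes, so it belongs to the same chromosome but not to the same run of genes.

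Ccr9, the gut-homing receptor for Ccl25, did not meet the level filter. Its levels were 0.0280, 0.0330 and 0.0380 FPKM in SLE1.2.3 mice 1, 2 and 3, against 0.0120, 0.0120 and 0.0100 FPKM in Control mice 1, 2 and 3. These rest on 24, 21 and 29 reads in SLE1.2.3 libraries and on 6, 7 and 3 reads in Control libraries. The values did not overlap, but an exact two-sided permutation test over 3 against 3 libraries cannot give less than the p of 0.10 found. Without the level filter limma gave an adjusted p of 0.10. The annotation of Ccr9 (ENSMUSG00000029530.16; chr9:123678439-123784330) shares 1932 exonic bases with a transcript of the opposite strand, so the few reads cannot be assigned to it with confidence.

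The order of the receptor levels differed between the groups. In SLE1.2.3 cells the means ran Cxcr6, Ccr2, Ccr1, Xcr1, Ccr3, Ccrl2 and Ccr9, with Cxcr6 above Ccr2 and Ccr2 above Ccr1 in each of the 3 libraries although their ranges over libraries overlapped. Xcr1, Ccr3 and Ccrl2 had overlapping ranges there. In Control cells the order was Ccr2, Cxcr6, Ccr1, Ccr3, Ccrl2, Xcr1 and Ccr9, and the ranges of Ccr3 and Ccrl2 overlapped. The summed level of the 7 genes was 387 ± 224 FPKM in SLE1.2.3 cells and 19.0 ± 3.55 FPKM in Control cells (SD, n = 3 each). Cxcr6 supplied 49.6%, 65.3% and 68.0% of that sum in SLE1.2.3 mice 1, 2 and 3, against 19.4%, 18.9% and 24.5% in Control mice 1, 2 and 3. Ccr2 supplied 31.2%, 24.9% and 22.8% in SLE1.2.3 mice 1, 2 and 3, against 49.4%, 57.9% and 53.4% in Control mice 1, 2 and 3, so the leading receptor RNA was Cxcr6 in every SLE1.2.3 library and Ccr2 in every Control library. Ccr1 had a share of 10.9% ± 4.82 in SLE1.2.3 cells and 12.3% ± 3.63 in Control cells (SD, n = 3 each), a difference smaller than the spread.

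**Figure D2:**
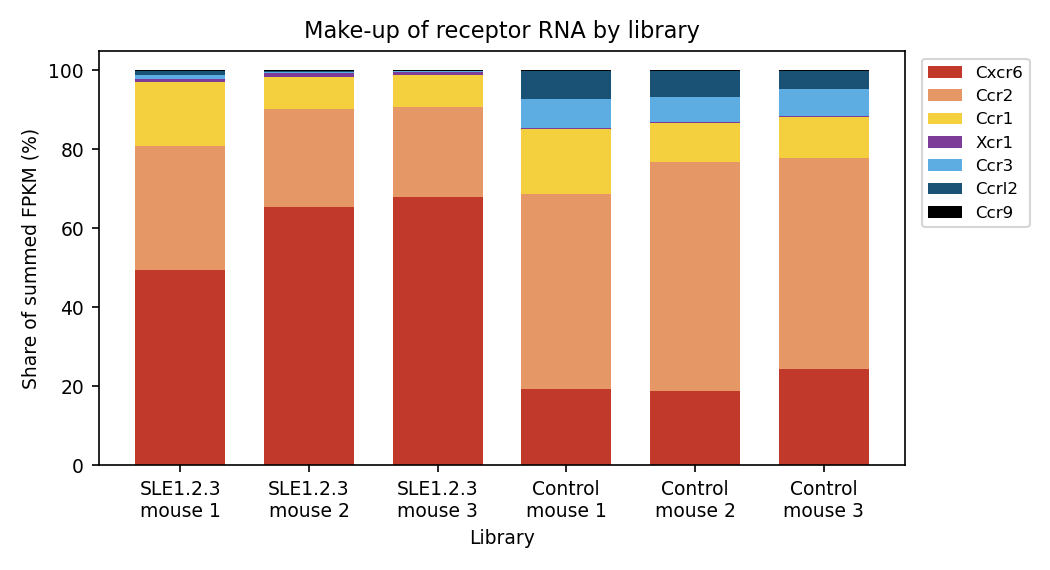
Share (%) of the summed FPKM of the 7 receptor genes that each gene supplied, in the 3 SLE1.2.3 libraries and the 3 Control libraries. Cxcr6 makes up 49.6% to 68.0% in SLE1.2.3 libraries and 18.9% to 24.5% in Control libraries.

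Within the SLE1.2.3 group the receptor genes differed in how far the libraries spread. The level in mouse 3 over that in mouse 1 was 5.83 for Xcr1, 5.55 for Cxcr6, 2.95 for Ccr2 and 1.96 for Ccr1. For Ccr3 and Ccrl2 it was 0.522 and 0.526, so these genes were lowest in the library where Cxcr6, Xcr1, Ccr2 and Ccr1 were highest. The same ratio was 42.1 for Cd8a and 9.11 for Trdc, the constant gene of the γδ T cell receptor, and 0.557 for Trac, its αβ counterpart, and 0.278 for Cd4. Trdc stood at 4.96, 18.9 and 45.2 FPKM in SLE1.2.3 mice 1, 2 and 3, against 0.627, 0.661 and 0.592 FPKM in Control mice 1, 2 and 3. Fitted with mouse 1 as the sole SLE1.2.3 library, the log2 changes were 3.89 for Cxcr6, 2.94 for Ccr1, 2.07 for Ccr2 and 0.85 for Xcr1, with limma adjusted p of 0.0034, 0.0016, 0.026 and 0.0089. That fit holds 1 SLE1.2.3 library and assumes that it varies like the Control libraries. In this library Cd8a was at 1.34 FPKM and Cd4 at 257 FPKM, but Trdc was still at 4.96, Trgc1 at 13.5 and Igkc at 56.4 FPKM. In Control mice these last 3 were at most 0.661, 0.817 and 1.64 FPKM.

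**Figure D3:**
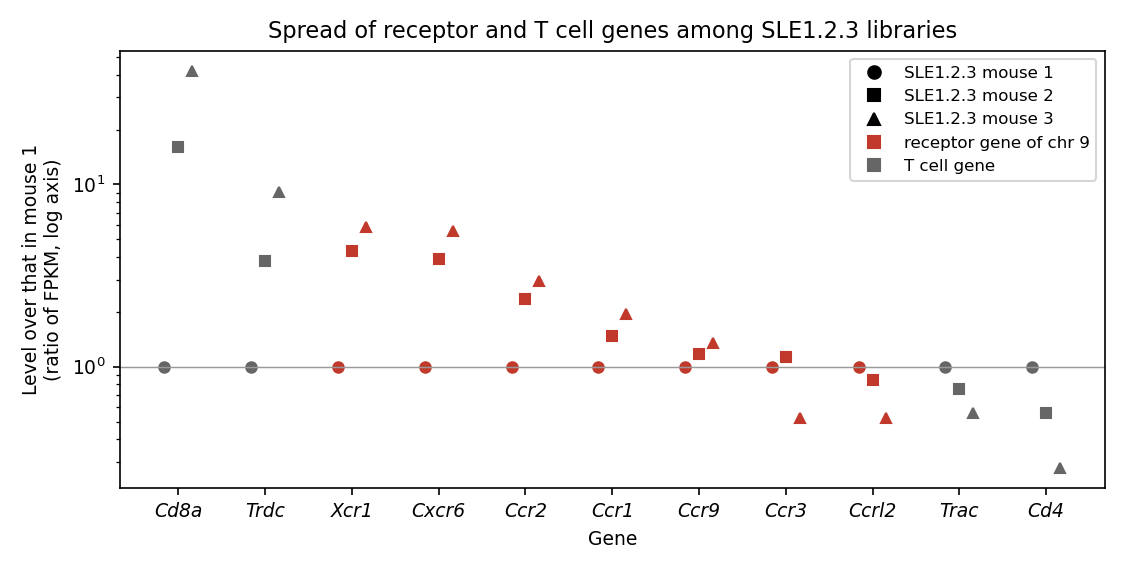
Level of each gene in the SLE1.2.3 libraries divided by its level in SLE1.2.3 mouse 1 (log axis), with a marker shape for each mouse, receptor genes in red and T cell genes in grey. In mouse 3 Cd8a lies at 42.1 and Cxcr6 at 5.55 times mouse 1, and Ccr3, Ccrl2, Trac and Cd4 lie below 1.

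Some markers of other cells moved with the receptor genes. The sums of γδ and NKT and of CD8 and NK cell markers rose from SLE1.2.3 mouse 1 to mouse 3. That of dendritic cell markers rose too, but it holds Xcr1 itself and was mostly Batf3, which activated T cells also express. Batf3 stood at 24.8, 37.9 and 40.04 FPKM in SLE1.2.3 mice 1, 2 and 3. The sum of myeloid markers fell from mouse 1 to mouse 3, and those of B cell and granulocyte markers were lowest in mouse 2. The 3 B cell markers called higher, however, each rose from mouse 1 to mouse 3. Many markers met the level filter by their SLE1.2.3 levels alone, as Xcr1 did, so that the sign of their change was fixed and their calls are a description. Over all tested genes 9.65% were called higher and 5.58% lower. Of 12 listed γδ and NKT cell markers 9 matched and were tested, and 7 were called higher, each of these with a Control mean under 1 FPKM. The summed level of the 9 was between 130 and 592 FPKM across SLE1.2.3 libraries and between 42.3 and 50.8 FPKM in Control libraries. Most of the Control sum was Maf, which did not pass (limma adjusted p = 0.72). Maf stood at 74.3, 32.2 and 23.4 FPKM in SLE1.2.3 mice 1, 2 and 3 and between 39.1 and 47.9 FPKM in Control mice. Trgc1, 1 of the 7 called, stood at 13.5, 84.9 and 192 FPKM in SLE1.2.3 mice 1, 2 and 3 and at most 0.817 FPKM in Control mice. Zbtb16, the transcription factor of innate-like T cells, stood at 2.38, 4.91 and 6.25 FPKM in SLE1.2.3 mice 1, 2 and 3 and at most 0.0830 FPKM in Control mice. Of 13 CD8 and NK cell markers 8 were tested and 6 called higher, or 4 of the 5 with both group means at 1 FPKM or more, with a sum between 242 and 2018 FPKM across SLE1.2.3 libraries and between 35.1 and 47.5 FPKM in Control libraries. Klrc1, Klrd1, Nkg7 and Gzmb were among those called higher. In SLE1.2.3 mice 1, 2 and 3 Klrc1 stood at 13.6, 30.4 and 35.4 FPKM, and Nkg7 at 13.2, 60.7 and 95.1 FPKM. In Control mice they were at most 1.41 and 1.40 FPKM. Ncr1, the defining NK cell receptor, was at most 0.0320 FPKM in any library, and Fcer1g and Tyrobp overlapped between the groups. Of 9 myeloid markers 3 were tested, 0 rose and Cd68 fell, with a sum between 5.63 and 12.7 FPKM across SLE1.2.3 libraries and between 8.45 and 9.90 FPKM in Control libraries. Csf1r, the growth factor receptor of monocytes and macrophages, which also use Ccr1 and Ccr2, was at most 0.106 FPKM in any library. Ly6c2, a monocyte gene that some T cells also express and that was not tested, stood at 0.529, 1.242 and 2.32 FPKM in SLE1.2.3 mice 1, 2 and 3 and at most 0.221 FPKM in Control mice. Of 8 B and plasma cell markers 4 were tested and 3 called higher, or 1 of the 2 with both group means at 1 FPKM or more, with a sum between 127 and 184 FPKM across SLE1.2.3 libraries and between 56.2 and 63.3 FPKM in Control libraries. The 3 called were Igkc, Jchain and Cd79b. Igkc stood at 56.4, 86.2 and 152 FPKM in SLE1.2.3 mice 1, 2 and 3 and at most 1.64 FPKM in Control mice. Ighm, the other tested marker, stood at 74.1, 35.1 and 23.1 FPKM in SLE1.2.3 mice 1, 2 and 3. In Control mice Ighm was between 53.4 and 60.7 FPKM, and it did not pass (limma adjusted p = 0.36). Of 11 granulocyte markers 7 lay above every Control library in every SLE1.2.3 library, but each of these was below the level filter. Over all tested genes that share was 23.9%, and none was worked out for genes below the filter. The 2 tested were Mcpt8 and Cpa3, and neither passed. In SLE1.2.3 mice 1, 2 and 3 Mcpt8 stood at 0.852, 0.0320 and 6.19 FPKM, and Cpa3 at 0.727, 0.0430 and 6.62 FPKM. In Control mice they were at most 0.0340 and 0.133 FPKM. The granulocyte markers had a sum between 2.51 and 18.2 FPKM across SLE1.2.3 libraries and between 0.588 and 0.828 FPKM in Control libraries. Of 8 dendritic cell markers 2 were tested, and the 1 called higher was Xcr1 itself, with a sum between 26.5 and 45.8 FPKM across SLE1.2.3 libraries and between 18.5 and 25.3 FPKM in Control libraries. Of 8 T cell identity genes, Cd4 among them, 0 passed by limma (1, Cd3g, at an unadjusted p under 0.05), and their sum was between 1478 and 2348 FPKM across SLE1.2.3 libraries and between 2113 and 2249 FPKM in Control libraries. The part of any of these other cells in the receptor results was not tested.

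Along the chromosome the difference was uneven. The 6 genes from Ccr9 to Ccr2 span 435 kb, and within 500 kb of them lie 27 other features, 10 of which were tested. Of these 10, 2 rose and 0 fell, against 15.2% called in either direction over all tested genes. Fyco1, an autophagy adaptor gene whose span holds Cxcr6, stood at 5.50, 6.72 and 7.57 FPKM in SLE1.2.3 mice 1, 2 and 3, against 4.22, 4.48 and 4.61 FPKM in Control mice 1, 2 and 3 (log2 change 0.47 ± 0.11 SE; limma adjusted p = 0.038). Its groups did not overlap, yet its change was small beside that of Cxcr6, and its call was lost without any one library other than SLE1.2.3 mouse 1 (adjusted p up to 0.14). The other neighbour that rose is not reported here. The cilia gene Lztfl1 and the phosphatase gene Sacm1l had log2 changes of 0.20 and 0.06 and did not pass (limma adjusted p = 0.16 and 0.68). Lars2, a mitochondrial tRNA synthetase gene, stood at 10.5, 9.04 and 8.88 FPKM in SLE1.2.3 mice 1, 2 and 3, against 8.46, 14.3 and 305 FPKM in Control mice 1, 2 and 3. The value of 305 FPKM belongs to the library in which ribosomal RNA features took 2.37% of reads, where the other 5 libraries had at most 0.281%. Around Ccrl2, 8 other features were tested, and Ccdc12 was the 1 that rose (log2 change 0.36; limma adjusted p = 0.027). That call was lost without SLE1.2.3 mouse 2 and without each Control mouse in turn, with adjusted p up to 0.099.

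**Figure D4:**
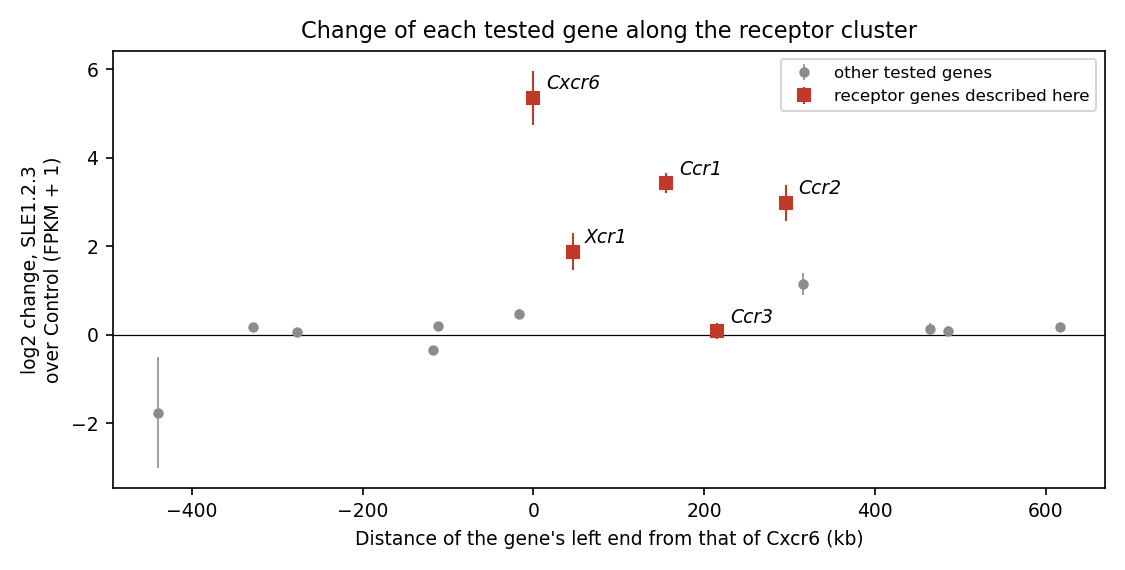
Log2 change (SLE1.2.3 over Control, FPKM + 1 scale) with its SE for each tested gene within 500 kb of the run from Ccr9 to Ccr2, against the distance of its left end from that of Cxcr6 in kb. Receptor genes described here are red, and Ccr3 at 0.09 lies between Ccr1 at 3.43 and Ccr2 at 2.99.

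The sequences just before the start sites of Cxcr6, Xcr1 and Ccr1, which were called higher, and of Ccr3, which lies among them and was not called, are shown because these genes are close neighbours with unlike changes. Each is the 250 bases before the start in RefSeq's GRCm38.p6, 5′ to 3′ on the strand of the gene, at chr9:123806227-123806476 for Cxcr6 (plus), chr9:123862030-123862279 for Xcr1 (minus), chr9:123968693-123968942 for Ccr1 (minus) and chr9:124021721-124021970 for Ccr3 (plus). RefSeq's Cxcr6 start lies 2 bases downstream of that in the deposited table, so the last 2 bases of its window fall in the first exon as annotated there. Ccr2 was also called higher, but its window overlaps annotated exons by more than 2 bases and is not shown. Capitals mark matches to any of 5 motifs, searched on both strands: the T-box core GGTGTG, the RORE half-site AGGTCA, the RUNX core TGTGGT, the AP-1 site TGANTCA and the GAS element TTCNNNGAA.
Cxcr6: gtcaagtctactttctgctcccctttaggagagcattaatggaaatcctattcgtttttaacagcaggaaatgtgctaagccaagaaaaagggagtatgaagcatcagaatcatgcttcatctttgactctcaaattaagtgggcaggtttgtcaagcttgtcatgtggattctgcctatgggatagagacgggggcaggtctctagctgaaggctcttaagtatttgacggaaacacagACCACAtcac
Xcr1: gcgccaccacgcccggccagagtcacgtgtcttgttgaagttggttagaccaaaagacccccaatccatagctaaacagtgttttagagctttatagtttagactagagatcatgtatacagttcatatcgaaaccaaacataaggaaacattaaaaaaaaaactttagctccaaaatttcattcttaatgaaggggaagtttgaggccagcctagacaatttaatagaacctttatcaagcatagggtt
Ccr1: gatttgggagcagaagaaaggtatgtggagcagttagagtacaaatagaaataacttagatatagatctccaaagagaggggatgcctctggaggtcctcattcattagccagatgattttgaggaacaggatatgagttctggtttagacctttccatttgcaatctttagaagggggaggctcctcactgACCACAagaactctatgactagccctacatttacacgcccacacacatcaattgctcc
Ccr3: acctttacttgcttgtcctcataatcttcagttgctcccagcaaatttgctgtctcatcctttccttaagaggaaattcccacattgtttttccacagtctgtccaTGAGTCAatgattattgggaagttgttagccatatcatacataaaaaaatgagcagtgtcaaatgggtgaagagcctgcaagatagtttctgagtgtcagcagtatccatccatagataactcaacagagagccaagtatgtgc
The Cxcr6 and Ccr1 windows each hold 1 RUNX core on the strand opposite to the gene, whose last base here lies 5 and 53 bases before the start, and the motif occurs in 14.0% of all 32817 windows of this length. The Ccr3 window holds 1 AP-1 site, which 6.75% of windows hold, and the Xcr1 window holds 0 matches. No match overlapped another, and a match is a string of letters, not a shown binding site. T-box, RORE and GAS letters were found in 16.3%, 14.0% and 7.01% of all windows and in 0 of these 4.

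Among the ligand genes of these receptors, Ccl5 and Ccl3 were higher in SLE1.2.3 cells. Of 17 listed ligand genes 15 were matched and 6 were tested, and 2 rose and 0 fell. Over all tested genes 9.65% were called higher and 5.58% lower. The median log2 change of the tested ligand genes was 2.00 beside 0.01 over all tested genes. Xcl1 was tested through its SLE1.2.3 levels alone, and without it the median was 2.35. Ccl5, a ligand of Ccr1 and Ccr3, stood at 11.5, 14.8 and 28.6 FPKM in SLE1.2.3 mice 1, 2 and 3, against 1.61, 2.33 and 2.66 FPKM in Control mice 1, 2 and 3 (log2 change 2.51 ± 0.32 SE; limma adjusted p = 0.0093). Ccl3, a ligand of Ccr1, stood at 6.71, 31.3 and 71.6 FPKM in SLE1.2.3 mice 1, 2 and 3, against 2.697, 2.23 and 1.58 FPKM in Control mice 1, 2 and 3 (log2 change 3.07 ± 0.76 SE; limma adjusted p = 0.045). The groups of both ligands were separate, and both were highest in SLE1.2.3 mouse 3. The call for Ccl3 was lost without any one library other than SLE1.2.3 mouse 1 (adjusted p up to 0.15), and that for Ccl5 without Control mouse 2 (adjusted p = 0.052). Xcl1, the ligand of Xcr1, stood at 0.435, 1.40 and 9.54 FPKM in SLE1.2.3 mice 1, 2 and 3 and at most 0.0670 FPKM in Control mice, and did not pass (limma adjusted p = 0.15). Ccl4, the partner gene of Ccl3, did not pass either (limma adjusted p = 0.066).

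For the other receptors the ligand was scarce in these cells. Cxcl16, the ligand of Cxcr6, stood at 0.520, 0.172 and 0.106 FPKM in SLE1.2.3 mice 1, 2 and 3, against 0.552, 0.321 and 0.456 FPKM in Control mice 1, 2 and 3. Ccl2 and Ccl7, ligands of Ccr2, were at most 0.0890 and 0.0400 FPKM in any library, and Ccl12, another, was listed at 0 in all 6. Ccl25, the ligand of Ccr9, was at most 1.08 FPKM, and Rarres2, which encodes the ligand of Ccrl2, at most 0.0120 FPKM.

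Chemokine receptors outside this set had changes of both signs. Of 16 listed, 7 were tested, 3 were called higher and 1 lower, where 9.65% of all tested genes were called higher and 5.58% lower. Their median log2 change was -0.60, beside 0.01 over all tested genes. Cxcr3, a receptor of Th1 and effector cells, stood at 3.00, 2.78 and 3.58 FPKM in SLE1.2.3 mice 1, 2 and 3, against 0.333, 0.641 and 0.583 FPKM in Control mice 1, 2 and 3 (log2 change 1.44; limma adjusted p = 0.0033). Its SLE1.2.3 libraries lay close together. Cxcr3 met the level filter by its SLE1.2.3 levels alone and Cxcr1 by its Control levels alone, which fixed the sign of both, and without them 2 of 5 rose and 0 fell. Cxcr4 and Ccr6, the Th17 receptor for Ccl20, had log2 changes of 0.65 and 0.96 (limma adjusted p = 0.018 and 0.027), and Cxcr1 had -1.74 (limma adjusted p = 0.0072). With 1 library left out at a time, Cxcr3 and Cxcr1 passed in each of the 6 fits. The call for Cxcr4 was lost without SLE1.2.3 mouse 2 or Control mouse 1 or 3, and that for Ccr6 without SLE1.2.3 mouse 2 or any Control mouse, with adjusted p up to 0.080 and 0.11. Ccr7, which guides naive cells to lymph nodes, stood at 181, 82.6 and 38.0 FPKM in SLE1.2.3 mice 1, 2 and 3, against 171, 183 and 173 FPKM in Control mice 1, 2 and 3, and did not pass (limma adjusted p = 0.19). Mouse 1 lay inside the Control range and mice 2 and 3 below it. Ccr4 was lower in every SLE1.2.3 library and did not pass (limma adjusted p = 0.056).

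**Figure D5:**
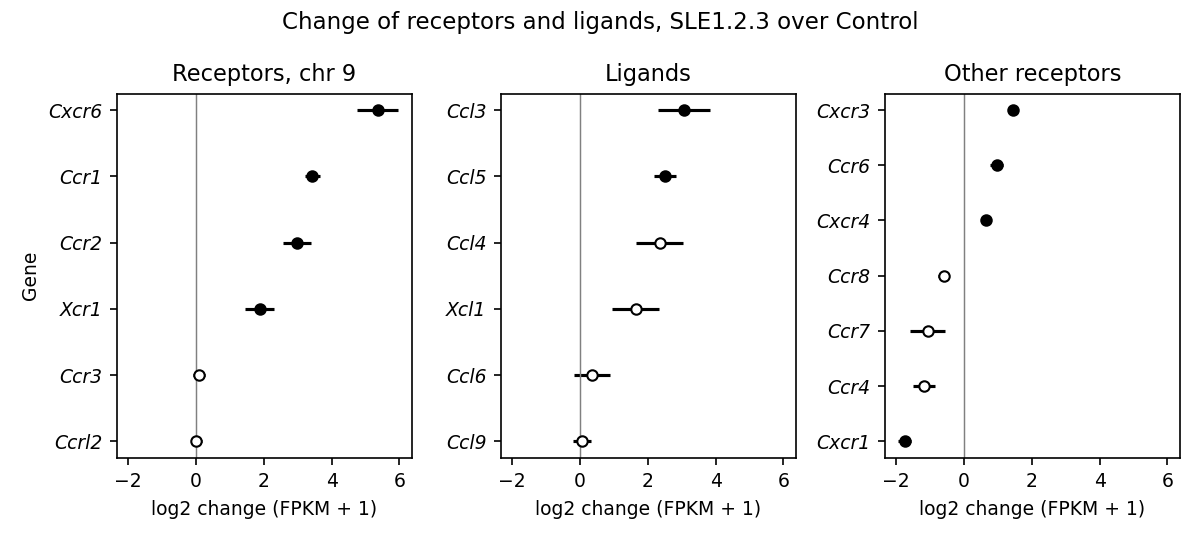
Log2 change (SLE1.2.3 over Control, FPKM + 1 scale) with its SE for the tested receptor genes of chromosome 9, their ligand genes and the other chemokine receptor genes, with filled points for an adjusted p under 0.05. Cxcr6 lies highest at 5.36 and Cxcr1 lowest at -1.74.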

How the data were processed

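Polyadenylated RNA of 6 cultures, 1 per mouse, was sequenced from SMARTER libraries, per the labels' protocols. Tools named in the submitters' processing notes, with no role or order, are STAR 2.7.3a, featureCounts 2.0.0, cutadapt 2.10 and DESeq2 1.24.0, and the build is mm10. The authors deposited FPKM values. Reads were recovered from the whole-read steps of low values (100.0% whole within 0.15 of a read, under 30 reads). The most that a 0 allows, 3 reads, is 0.0359 to 0.101 reads per 1000000, and covers counting error only. No libraries were identical.

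Features averaging 1 FPKM or more were tested as log2(FPKM + 1) with limma 3.58.1 in R 4.3.3 (empirical Bayes with a mean-variance trend, genotype as the only term, Benjamini-Hochberg over all 11378, threshold 0.05). The scale understates changes of low genes, and p reflects only how these mice vary. Scripts were tested on simulated data. Alternatives changed the pseudocount (0.1), the filter (none, or a mean of 5 FPKM), the scaling and the variance model, used limma voom with trimmed-mean scaling on recovered reads, took mouse number as a block, or left libraries out.

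The receptor genes and the gene lists were chosen with earlier results of these data known. The text names all 7 receptor genes, coding neighbours within 500 kb, up to 4 called members of each list (2 where none passed) and the 3 genes most like each tested receptor gene. Untested ligands and cell markers, Batf3, Ighm, Maf, Ccl4, Xcl1, Ccr4, Ccr7 and Gnai2 were picked with their values in view. Not every gene under this rule is reported here. Positions are those of the deposited table, and 1755 of its 1773 chromosome 9 features have the same place in GENCODE M21.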

Additional observations from a re-analysis of the deposited data

How the results depend on the processing

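Under all alternatives that could test them Cxcr6 and Ccr1 kept their direction and call, and Ccr2 and Xcr1 kept their direction. Ccr2 was called in 14 of 18 alternatives and Xcr1 in 8 of 17. The number of receptor genes called was 3 to 5 under the settings that keep all libraries and 2 to 4 with each library left out in turn. The number of all genes called, 1733 in the reported fit, was 798 with no filter, 1129 at a mean of at least 5 FPKM, 6952 with array weights, 940 with the mouse number as a replicate block, 665 with SLE1.2.3 mouse 1 alone against the Control mice and 240.0 to 3701 with each library left out. Of 18 tested neighbours 3 were called in the reported fit, 11 with array weights, 1 with the replicate block, 0 to 7 with each library left out, and by limma 0 with SLE1.2.3 mouse 1 alone (5 at an unadjusted p under 0.05) and 0 of 56 with no filter (12 at an unadjusted p under 0.05). The causes were not tested, and the array weights had not fully converged. The block also ended the call for Xcr1 (adjusted p = 0.054). Same-numbered mice had correlations of -0.0040, 0.1001 and 0.0914 in their deviations from the group means. With 3 mice per group these values cannot decide whether same-numbered mice were handled together, which was not tested.

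Signs turned for values that had not passed. The log2 change of Ccrl2 was -0.026 after quantile normalization, -0.038 by voom and between -0.088 and 0.152 as each library was left out, and that of Ccr3 was between -0.033 and 0.279 in those fits. With SLE1.2.3 mouse 1 kept as the sole library of its group, Cd4, Cd5, Ccr7 and Als2cl had 0.016, 0.10, 0.044 and 0.089. Depth limits Ccr9 and the Control level of Xcr1, which rest on few reads.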

Other observations

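Genes that carry or dampen the signal of the receptors had changes of both signs. Of 28 listed, 27 were tested, 4 rose and 2 fell, where 9.65% of all tested genes were called higher and 5.58% lower. Their median log2 change was 0.19 beside 0.01 over all tested genes. Gng2, a G protein subunit gene, Rgs3, a regulator of G protein signalling, and Dock2, which links chemokine receptors to Rac, had log2 changes of 0.60, 0.92 and 0.81 (limma adjusted p = 0.016, 0.017 and 0.022). Rgs1, which dampens chemokine receptor signals in lymphocytes, stood at 18.5, 10.9 and 11.2 FPKM in SLE1.2.3 mice 1, 2 and 3, against 34.1, 29.6 and 25.5 FPKM in Control mice 1, 2 and 3, and fell by 1.11 (limma adjusted p = 0.024). Each of these 4 calls was lost without SLE1.2.3 mouse 2 and without each Control mouse in turn (adjusted p up to 0.072, 0.081, 0.097 and 0.098). Gnai2, the main inhibitory G protein gene of lymphocytes, was between 195 and 214 FPKM across SLE1.2.3 libraries and between 190.3 and 204 FPKM in Control libraries.

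Among 9673 coding genes the profiles most like those of the receptor genes, by Pearson's r of log2(FPKM + 1) over 6 libraries, were Glrx, Fam129a and Csnk1g3 for Cxcr6, Evi2a and Zfp597 for Ccr2, Bik, Cd38 and Dcaf15 for Ccr1, and Glipr1, Actn2 and Dnajc3 for Xcr1, with r from 0.9986 to 0.9997. For Ccr3 they were Gstt2, Stat5a and Shisa5 (r from 0.949 to 0.9703) and for Ccrl2 Naxe, mt-Atp6 and Adipor1 (r from 0.992 to 0.998). The libraries form 2 groups, so for the first 4 receptor genes r is set mainly by the difference between them. Glipr1 stood at 20.9, 73.2 and 102 FPKM in SLE1.2.3 mice 1, 2 and 3, against 8.63, 8.95 and 8.48 FPKM in Control mice 1, 2 and 3. Csnk1g3 had 15.2, 16.7 and 17.3 FPKM in SLE1.2.3 mice 1, 2 and 3 and 12.4, 12.4 and 12.5 FPKM in Control mice 1, 2 and 3, so a like profile can come with a change of very different size.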
